A study of Mus musculus with 12 samples.

Results

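The mitotic and G2/M genes encode the cyclins, kinases, checkpoint proteins, kinesins, kinetochore parts and cytokinesis factors that carry a cell from late G2 through division. They were taken as a named list of 45 genes and not selected by their values, though earlier results of these data were known. The deposited tables hold 43 of them under the listed symbol, of 19012 gene symbols in all. The kinase gene Cdk1 stands in the tables under its older symbol Cdc2a, matched by accession, and is given beside the 43 without being counted. The proliferation marker Mki67 was not analysed here.

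RNA sequencing of polyadenylated RNA covered 12 mouse libraries. They comprised 4 wild-type (WT) livers, and 4 livers and 4 liver tumors from E2f7 and E2f8 double knockout (DKO) mice. The WT livers carry neither deletion, and no treatment is given for any group. Age, sex, strain and the way the deletion was made, including any Cre driver, are not given in the sources used here. Codes in the data names pair each DKO tumor with the DKO liver of the same number as tissue of 1 animal, and the WT codes are of 4 other animals. So every DKO liver came from a tumor-bearing mouse. The loss of E2f7 and E2f8 and the bearing of a tumor therefore cannot be told apart in the DKO livers. Values are RPKM, read numbers scaled to exon length and to library size, so levels of different genes can be compared.

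Resting hepatocytes are mostly outside the cell cycle and hold little mitotic mRNA. In cycling cells the mitotic genes are repressed in G1 by the DREAM complex (a p130 or p107, E2F4, DP and MuvB assembly) and are switched on in late S and G2 when MuvB joins B-MYB, encoded by Mybl2, and FOXM1. The factors act largely through the cell cycle homology region, an element with the core TTTGAA, and NF-Y binds CCAAT boxes in the same promoters. E2F7 and E2F8 are atypical E2F proteins that repress E2F-driven genes, a class better known for S phase functions than for mitosis. Most hepatocytes of an adult mouse are polyploid, and E2F7 and E2F8 are known to be needed for the incomplete cytokinesis behind it.

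These sequence features were common in the members' promoters. RefSeq promoters on build GRCm38.p6, each from 250 bases before to 50 after the annotated start, were present for 36 of the 43 members, with 38 promoters in all. They are missing from the table used for Ccna2, Cdc25c, Pbk, Aurkb, Kif20a, Tpx2 and Foxm1. On either strand, TTTGAA occurred in 26 of the 38 promoters (68.4%) against 17.9% of the 32851 promoters in the table. CCAAT occurred in 29 (76.3%) against 37.4%, and both TTTGAA and at least 2 CCAAT in 16 (42.1%) against 2.09%. The E2F words TTTGGCGC, TTTCCCGC, TTTCGCGC and TTTGCCGC occurred in 0 of 38 (0.0%) against 2.26%. None of these words was found in 6 promoters (15.8%, against 50.5%). Words were searched on both strands, and a palindromic pair of CCAAT counts once on each. A match describes letters, not a bound site. Only these exact words were searched, so a promoter without them may still hold such a site. With a share of 2.26% over all promoters, 0 of 38 for the E2F words shows no deficit.

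The 150 bases before the start are shown for 6 promoters that hold CCAAT in that stretch and TTTGAA near the start, an arrangement they were chosen for, and for Kif2c, the 1 member that passed the test described below. Each runs 5′ to 3′ on the strand of the gene and ends at the base before the start. Capitals mark the words TTTGAA and, on the other strand, TTCAAA. They also mark the word CCAAT and, on the other strand, ATTGG. In these 6 a 5-letter word lies upstream of the 6-letter word. Ect2, which is not printed, also holds both words in that stretch of its 2 promoters, but its 6-letter word begins at base -114 or -138 from the start, upstream of every CCAAT. The Kif2c stretch has the 6-letter word farther upstream and no CCAAT. Most of the 26 promoters that hold TTTGAA in the window searched have none in these 150 bases, so the printed ones are not typical.
Cdc20 (chr4:118437344-118437493, minus strand): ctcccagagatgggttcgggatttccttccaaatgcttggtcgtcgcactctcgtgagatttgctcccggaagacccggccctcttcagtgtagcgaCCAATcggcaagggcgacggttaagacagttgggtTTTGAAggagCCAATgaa
Top2a (chr11:99024190-99024339, minus strand): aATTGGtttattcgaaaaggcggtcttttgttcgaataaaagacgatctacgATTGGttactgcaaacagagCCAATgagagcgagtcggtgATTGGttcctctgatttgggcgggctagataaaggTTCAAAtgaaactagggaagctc
Ube2c (chr2:164769779-164769928, plus strand): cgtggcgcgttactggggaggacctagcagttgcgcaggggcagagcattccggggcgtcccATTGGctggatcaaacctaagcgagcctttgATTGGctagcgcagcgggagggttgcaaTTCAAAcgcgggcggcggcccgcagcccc
Ckap2l (chr2:129297213-129297362, minus strand): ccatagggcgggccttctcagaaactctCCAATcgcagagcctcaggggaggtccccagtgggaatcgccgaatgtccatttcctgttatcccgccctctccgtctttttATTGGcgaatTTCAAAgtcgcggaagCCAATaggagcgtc
Kif11 (chr19:37376232-37376381, plus strand): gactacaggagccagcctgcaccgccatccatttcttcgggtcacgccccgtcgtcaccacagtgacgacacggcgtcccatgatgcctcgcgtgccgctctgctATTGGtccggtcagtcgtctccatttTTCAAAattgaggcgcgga
Prc1 (chr7:80294326-80294475, plus strand): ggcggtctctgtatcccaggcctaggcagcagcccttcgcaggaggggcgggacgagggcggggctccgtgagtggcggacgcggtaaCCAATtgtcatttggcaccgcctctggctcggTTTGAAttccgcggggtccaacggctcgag
Kif2c (chr4:117178773-117178922, minus strand): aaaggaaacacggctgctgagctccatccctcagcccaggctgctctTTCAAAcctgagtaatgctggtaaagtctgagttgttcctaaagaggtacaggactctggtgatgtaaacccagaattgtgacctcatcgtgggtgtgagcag

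The libraries held 7.98 to 15.96 M reads (M, mega), with 1628 to 3892 reads on the members in DKO tumors, 640 to 2699 in DKO livers and 346 to 991 in WT livers. Summed hepatocyte markers were at 37012 to 125565 RPKM, so every library was liver by these genes. E2f7 was at 0.138 ± 0.0433 RPKM in WT livers, and DKO livers and tumors were at 0.281 ± 0.0838 and 0.179 ± 0.101 (SD, n = 4 each). E2f8 was at 2.70 ± 1.13, 9.75 ± 7.70 and 5.70 ± 4.60. The labels do not say which exons were removed, so these levels are no check of the genotype. The names of the deposited data carry a tag, L02 for the DKO livers and WT livers 1 and 2, and L03 for the DKO tumors and WT livers 3 and 4. What the tag records is not stated, and among the 8 libraries of tumor and DKO liver tag and tissue cannot be told apart. DKO liver 3 and DKO tumor 2 stood apart from the rest of their groups in the members, and values without them stand beside the comparisons that they moved.

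Members were low in normal liver. Their mean was under 1 RPKM for 35 of 43 in WT livers, for 25 in DKO livers and for 21 in tumors, and under 0.5 RPKM for 26, 14 and 7. In 516 values of 43 members in 12 libraries, 1 was at 0 reads, Mybl2 in WT liver 4. With 1 read in 2 kb of exon worth 0.0313 to 0.0626 RPKM, many member values rest on few reads. The filter for testing, at least 0.5 RPKM in at least 4 libraries, kept 35 members of the 11351 genes tested. It left out Cdc25c, Bub1, Ttk, Cenpe, Cenpf, Ndc80, Sgol1 and Mybl2. Of the 35, 11 had no WT liver at 0.5 RPKM and passed through the DKO groups alone, so counts below are given over all 43 unless a test is named. They are Ccnb1, Birc5, Bub1b, Kif11, Kif23, Kif4, Kif2c, Hmmr, Ckap2l, Nuf2 and Anln, and their tests against WT liver carry that limit.

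**Figure D1:**
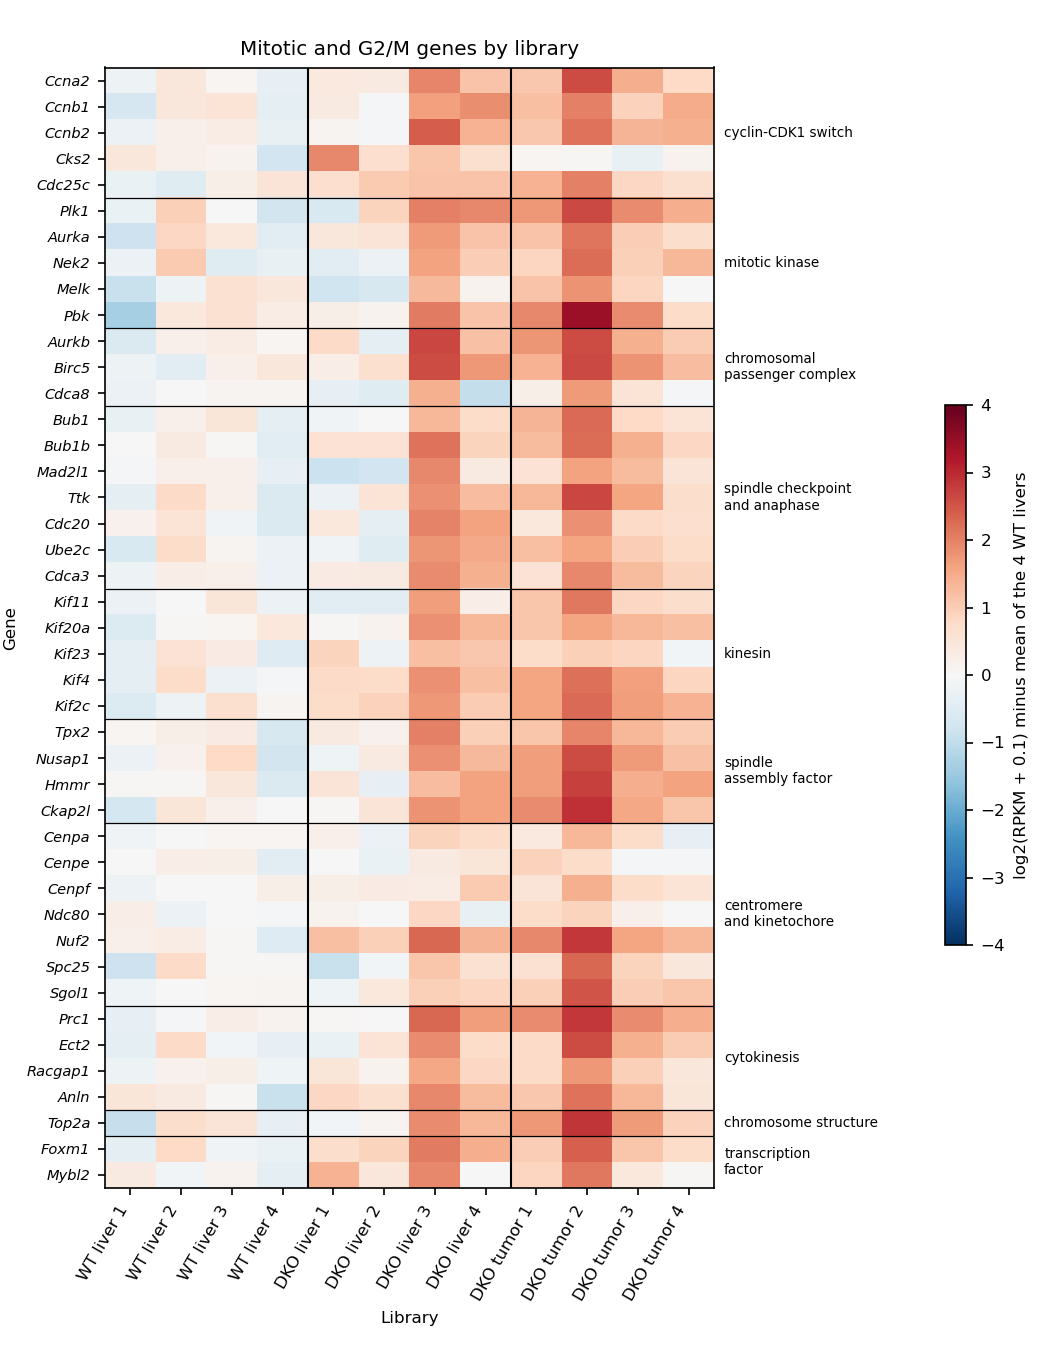
Level of each of the 43 members (rows, grouped by role) in each of the 12 libraries (columns, by group), colored by log2(RPKM + 0.1) minus the mean of the 4 WT livers, red for higher and blue for lower. DKO tumor 2 and DKO liver 3 are the reddest columns of their groups, and DKO livers 1 and 2 are as pale as the WT livers in most rows.

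DKO tumors were compared with WT livers to ask how mitotic gene levels in the tumors stand against those of normal liver. The log2 difference was above 0 for 42 of 43 members, against 41.8% of all symbols. All 4 tumors lay above all 4 WT livers for 27 of 43 members (62.8%), against 4.02% of all symbols, and 0 members lay below (4.04%). For Bub1, Cdc25c and Ube2c the lowest tumor lay above the highest WT liver by less than the level that 1 read gives. The median ratio of group means was 3.21, from 0.950 for Cks2 to 5.72 for Nuf2. On the log2(RPKM + 1) scale the median member difference was 0.64, against -0.02 over all genes tested, and the offset of 1 understates differences of genes this low. By limma's moderated test with Benjamini-Hochberg adjustment over all 11351 genes, 1 of 35 members passed at 0.05, Kif2c, against 1.9% of genes tested in either direction (1.23% higher). Kif2c is 1 of the 11 tested members with no WT liver at 0.5 RPKM, so it entered the test only through the DKO groups. Unadjusted p was under 0.05 for 28 of the 35 members and 2176 of the 11351 genes, and members' adjusted p ran from 0.0462 to 0.973 with a median of 0.141. The number of members called ran from 0 to 5 over the alternative settings. Without DKO tumor 2 the median member difference was 0.48, with 42 members above 0 and 1 below. In that fit 0 members passed, and 20 of all genes tested did, against 216 with all libraries. In bulk tissue, more dividing cells and more mRNA per dividing cell cannot be told apart.

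**Figure D2:**
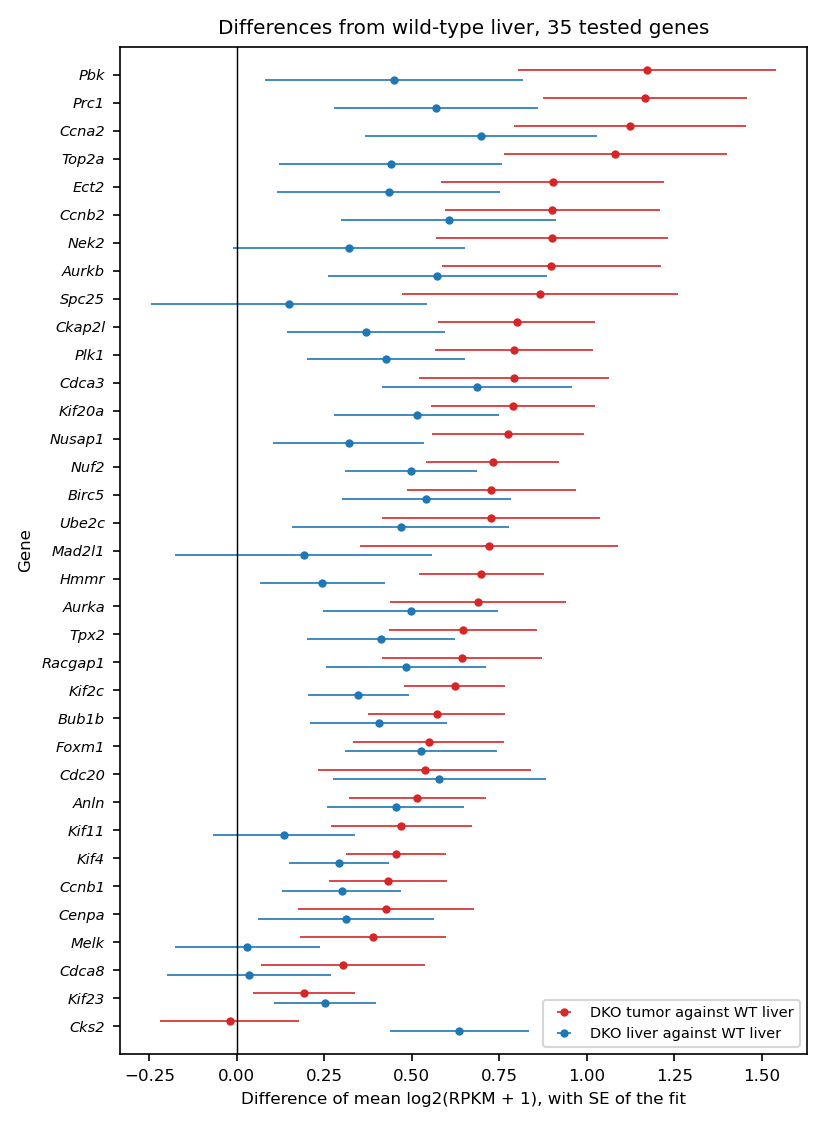
Difference from WT liver of mean log2(RPKM + 1) for the 35 tested members, red for DKO tumor and blue for DKO liver, with bars of 1 standard error of the fit, ordered by the tumor difference. All points but that of Cks2 in tumor lie to the right of 0, and the 2 sets share the WT livers as controls.

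Kif2c encodes a kinesin that takes microtubules apart at centromeres and corrects wrong attachments. It lies on mm9 chromosome 4 from 116832265 to 116855168 on the minus strand. Its level was 0.0912, 0.142, 0.337 and 0.205 RPKM in WT livers 1 to 4, 0.362, 0.436, 0.828 and 0.471 in DKO livers 1 to 4, and 0.731, 1.23, 0.790 and 0.630 in DKO tumors 1 to 4. Every DKO liver and every DKO tumor lay above every WT liver, while DKO liver 3 lay above 3 of the tumors. DKO liver 1 lay above WT liver 3 by less than the level that 1 read gives. The reads behind these values were 2, 5, 11 and 8, then 12, 12, 28 and 12, then 32, 43, 31 and 26. Kif2c rose from 0.194 ± 0.106 RPKM in WT livers to 0.846 ± 0.266 in DKO tumors (SD, n = 4 each), a log2 difference of 0.62 with a standard error of 0.15 and limma adjusted p = 0.0462. Without the filter on low values the limma adjusted p was 0.105. When 1 library was left out it passed in 2 of 12 fits, with adjusted p from 0.0328 to 0.151. With the tag as a covariate adjusted p was 0.351 (log2 difference 0.53), and with the tumors against the 2 WT livers of the same tag it was 0.420.

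The other kinesin genes are Kif11, Kif20a, Kif23 and Kif4, whose products push spindle poles apart, build the central spindle or bind chromosome arms. Tumors lay above all WT livers for Kif11, Kif20a and Kif4. Kif20a, needed for cytokinesis and the highest kinesin gene by mean level, was at 0.514, 0.823, 0.838 and 1.09 RPKM in WT livers, 0.824, 0.876, 3.09 and 2.15 in DKO livers, and 1.84, 2.58, 2.13 and 1.97 in tumors. The tumors were close to each other and above the WT livers, and DKO livers 1 and 2 sat inside the WT range. Its tumor to WT log2 difference was 0.79 (SE 0.24, limma adjusted p = 0.0961). Kif23, the motor of the centralspindlin complex, was the kinesin gene with the lowest ratio of tumor to WT means, 1.71.

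The switch into mitosis is made by CDK1 with cyclins A2, B1 and B2, opened by the phosphatase CDC25C and assisted by the small subunit CKS2. Tumors lay above all WT livers for Ccna2, Ccnb1, Ccnb2 and Cdc25c, 4 of the 5 found. Ccna2 was at 1.29, 2.11, 1.62 and 1.18 RPKM in WT livers, 2.03, 1.95, 6.09 and 3.41 in DKO livers, and 3.32, 9.72, 4.30 and 2.72 in tumors. The WT livers and the tumors did not overlap, and DKO livers 1 and 2 were within the WT range. The log2 difference of tumor and WT was 1.12 (SE 0.33, limma adjusted p = 0.0961).

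Ccnb1, on mm9 chromosome 13 from 101548693 to 101556440, was much lower. It was at 0.0541, 0.236, 0.254 and 0.0910 RPKM in WT livers, 0.214, 0.129, 0.666 and 0.791 in DKO livers, and 0.460, 0.884, 0.362 and 0.575 in tumors. Tumors lay above all WT livers, but the 4 WT libraries held 18 Ccnb1 reads in all. Its log2 difference was 0.43 (SE 0.17, limma adjusted p = 0.185). Cdc2a, the listed name of Cdk1, was at 0.920, 2.68, 1.59 and 1.08 RPKM in WT livers, 1.19, 1.05, 5.79 and 2.68 in DKO livers, and 3.35, 7.32, 4.82 and 2.02 in tumors. Tumor 4 fell within the WT range and the other 3 tumors lay above it (log2 difference 1.02, limma adjusted p = 0.183).

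Cks2 had a pattern of its own and was chosen for description after its values were seen. It lies on mm9 chromosome 13 from 51740600 to 51746030. It was at 1.08, 0.900, 0.849 and 0.405 RPKM in WT livers, 3.22, 1.29, 1.75 and 1.24 in DKO livers, and 0.813, 0.794, 0.605 and 0.863 in tumors. The DKO livers lay above every other library, and tumors and WT livers overlapped. Reads were 4 to 8 in WT livers, 8 to 27 in DKO livers and 6 to 9 in tumors. The log2 difference was 0.63 for DKO liver and WT liver (limma adjusted p = 0.292), -0.65 for tumor and DKO liver (adjusted p = 0.149) and -0.02 for tumor and WT liver (adjusted p = 0.973).

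Among the kinase genes, Plk1 encodes the kinase that drives centrosome maturation and mitotic exit, Aurka and Nek2 act at centrosomes, and Melk and Pbk encode further kinases of dividing cells. Plk1 was at 0.171, 0.532, 0.229 and 0.0957 RPKM in WT livers, 0.113, 0.498, 1.22 and 1.13 in DKO livers, and 0.967, 1.93, 1.11 and 0.785 in tumors. All tumors lay above all WT livers, while the DKO livers divided into 2 within the WT range and 2 at tumor levels. The log2 difference of tumor and WT was 0.79 (SE 0.23, limma adjusted p = 0.0824). Nek2, the highest kinase gene, was at 0.937, 2.41, 0.766 and 0.891 RPKM in WT livers, 0.807, 0.940, 3.62 and 2.31 in DKO livers, and 2.14, 5.61, 2.25 and 2.97 in tumors. WT liver 2 lay inside the tumor range, so the groups overlapped (log2 difference 0.90, limma adjusted p = 0.161). Pbk did not overlap, with a ratio of means of 4.97, and Aurka and Melk overlapped, with ratios of 2.49 and 2.25.

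The chromosomal passenger complex, which watches over chromosome attachment and the cleavage furrow, was represented by its kinase Aurkb and by Birc5 and Cdca8, which encode survivin and borealin. Aurkb was at 0.256, 0.519, 0.559 and 0.467 RPKM in WT livers, 0.803, 0.306, 3.32 and 1.10 in DKO livers, and 1.73, 3.18, 1.32 and 0.986 in tumors. Tumors lay above all WT livers, and DKO liver 3 lay above the highest tumor (log2 difference of tumor and WT 0.90, SE 0.31, limma adjusted p = 0.141). Birc5 did not overlap either, at 0.235 ± 0.0943 RPKM in WT livers and 1.09 ± 0.582 in tumors (n = 4 each). Cdca8 overlapped, with 0.479 ± 0.0632 and 0.883 ± 0.595 RPKM.

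Incenp, the scaffold of the same complex, is not a member and was counted among 69 other mitotic genes. It rose from 0.677 ± 0.232 RPKM in WT livers to 2.09 ± 0.653 in tumors (n = 4 each; log2 difference 0.87, limma adjusted p = 0.0386), with the DKO livers at 1.51 ± 0.602. Its call is not given for the alternative settings. Over all genes, 3 passed with the tag as a covariate and 1 without the filter.

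The spindle checkpoint holds back anaphase until all kinetochores are attached, and a ubiquitin step starts anaphase. The list groups 7 members under these headings, Cdca3 among them without a stated part in either. Tumors lay above all WT livers for the checkpoint genes Bub1, Bub1b and Mad2l1, for Ube2c, the ubiquitin-conjugating enzyme of the anaphase-promoting complex, and for Cdca3. Mad2l1 was at 1.45, 1.81, 1.80 and 1.22 RPKM in WT livers, 0.815, 0.867, 6.16 and 2.0 in DKO livers, and 2.36, 4.93, 3.85 and 2.28 in tumors. DKO livers 1 and 2 were below every WT liver and DKO liver 3 was above every other library (log2 difference of tumor and WT 0.72, SE 0.37, limma adjusted p = 0.311). The checkpoint kinase Ttk and the anaphase activator Cdc20 overlapped, with ratios of tumor to WT means of 5.31 and 2.09, and Ttk rested on 14 reads over the WT livers.

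The 4 spindle assembly genes, Tpx2, Nusap1, Hmmr and Ckap2l, encode proteins that nucleate or bundle spindle microtubules. For all 4 of them tumors lay above all WT livers. Tpx2, the activator of Aurora A, was at 0.438, 0.507, 0.546 and 0.228 RPKM in WT livers, 0.558, 0.473, 1.97 and 0.889 in DKO livers, and 1.0, 1.89, 1.19 and 0.948 in tumors. Tumor 2 was the highest of the tumors, and DKO liver 3 lay above all of them (log2 difference of tumor and WT 0.65, SE 0.21, limma adjusted p = 0.122). Limma adjusted p was 0.0629 for Hmmr, 0.0789 for Nusap1 and 0.0803 for Ckap2l, with ratios of means of 5.41, 4.25 and 5.15. Hmmr and Ckap2l had no WT liver at 0.5 RPKM and entered the test only through the DKO groups.

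Centromere and kinetochore members include the centromeric histone gene Cenpa, the motor and matrix genes Cenpe and Cenpf, the NDC80 complex genes Ndc80, Nuf2 and Spc25, and Sgol1, which encodes the protector of centromeric cohesion. Only Cenpf, Nuf2 and Sgol1 of the 7 had tumors above all WT livers. Spc25 was the highest member of all by mean level, at 1.40, 4.44, 2.68 and 2.66 RPKM in WT livers, 1.35, 2.40, 5.66 and 3.99 in DKO livers, and 4.05, 13.2, 4.88 and 3.61 in tumors. Tumor 2 was far above the rest, and WT liver 2 lay within the tumor range (log2 difference 0.87, SE 0.40, limma adjusted p = 0.256). Parts of 1 complex differed in level: the 12-library mean was 4.2 RPKM for Spc25, 0.618 for Nuf2 and 0.340 for Ndc80. Nuf2 went from 0.175 ± 0.0618 RPKM in WT livers to 0.998 ± 0.552 in tumors, and Ndc80 from 0.270 ± 0.0536 to 0.420 ± 0.147. Cenpe was at most 0.185 RPKM and Cenpf at most 0.248 RPKM in any library.

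Cytokinesis members are Prc1, which bundles the central spindle, Ect2 and Racgap1, which switch on RhoA at the furrow, and the furrow scaffold Anln. Racgap1 was at 0.909, 1.21, 1.28 and 0.927 RPKM in WT livers, 1.53, 1.18, 3.29 and 1.99 in DKO livers, and 1.90, 3.79, 2.17 and 1.49 in tumors. All tumors, and all DKO livers except DKO liver 2, lay above every WT liver (log2 difference of tumor and WT 0.64, SE 0.23, limma adjusted p = 0.145). Prc1 had the lowest adjusted p after Kif2c, 0.0576, at 0.514 ± 0.108 RPKM in WT livers and 2.52 ± 1.16 in tumors (n = 4 each), without overlap. Ect2 and Anln overlapped, with ratios of tumor to WT means of 3.21 and 2.95.

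Top2a encodes the topoisomerase that untangles sister chromatids. It was at 0.288, 1.09, 0.935 and 0.485 RPKM in WT livers, 0.571, 0.688, 2.61 and 1.74 in DKO livers, and 2.34, 5.18, 2.28 and 1.29 in tumors. Tumors lay above all WT livers, DKO livers 1 and 2 within the WT range and DKO livers 3 and 4 within the tumor range. The log2 difference of tumor and WT was 1.08 (SE 0.32, limma adjusted p = 0.0955).

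The transcription factor genes Foxm1 and Mybl2 both overlapped between tumor and WT liver. Foxm1 was at 0.201, 0.572, 0.251 and 0.225 RPKM in WT livers, 0.530, 0.616, 1.56 and 0.963 in DKO livers, and 0.675, 1.93, 0.737 and 0.549 in tumors. Only WT liver 2 reached the level of the lowest tumor (log2 difference 0.55, SE 0.22, limma adjusted p = 0.187). Mybl2 was read 2, 1, 2 and 0 times in WT livers, 11, 3, 18 and 1 times in DKO livers, and 8, 22, 4 and 2 times in tumors. At this depth no difference of Mybl2 between groups can be read, and it did not enter the test.

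DKO livers were compared with WT livers to ask whether the members differ in liver outside the tumors. The log2 difference was above 0 for 43 of 43 members, against 51.6% of all symbols, with a median of 0.37 against 0.08 over all genes tested. Without DKO liver 3 the median was 0.21, with 37 members above 0 and 6 below. The median ratio of group means was 2.26, from 1.14 for Melk to 5.59 for Mybl2, which had only 5 reads over the WT livers. Groups did not overlap for 9 members (20.9%), all higher in DKO liver, against 4.05% of all symbols higher and 1.28% lower. They were Cks2, Cdc25c, Bub1b, Cdca3, Kif4, Kif2c, Cenpf, Nuf2 and Anln. For Cdc25c, Kif4, Kif2c and Cenpf the lowest DKO liver lay above the highest WT liver by less than the level that 1 read gives. By limma 0 of 35 members passed, as did 0 of all 11351 genes (0.0%). Unadjusted p was under 0.05 for 8 members and 1408 genes, and voom on recovered reads called 0 members as well. Cks2 had the lowest adjusted p among members, 0.292. Without DKO liver 2 the number of members without overlap was 15, against 7.28% of all symbols. With quantile normalization it was 1.

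The 4 DKO livers were not alike. DKO liver 3 lay above every WT liver for 43 of 43 members, against 42.4% of all symbols, and DKO liver 4 for 35, against 15.9%. DKO liver 1 did so for 16 members (27.3% of all symbols) and DKO liver 2 for 14 (17%). Over genes tested alone the shares for DKO livers 1 to 4 were 34.8%, 21.1%, 54.3% and 18.5%. With median-of-ratios scaling the member counts were 11, 14, 40 and 37, beside 24.9%, 20.9%, 26.2% and 25.6% of genes tested. The summed RPKM of the 43 members was 28.6, 26.3, 89.4 and 54.2 in DKO livers 1 to 4, against 19.0, 33.2, 27.6 and 21.2 in WT livers 1 to 4. DKO livers 1 and 2 thus lay within the WT range of the sum and DKO livers 3 and 4 above it.

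**Figure D3:**
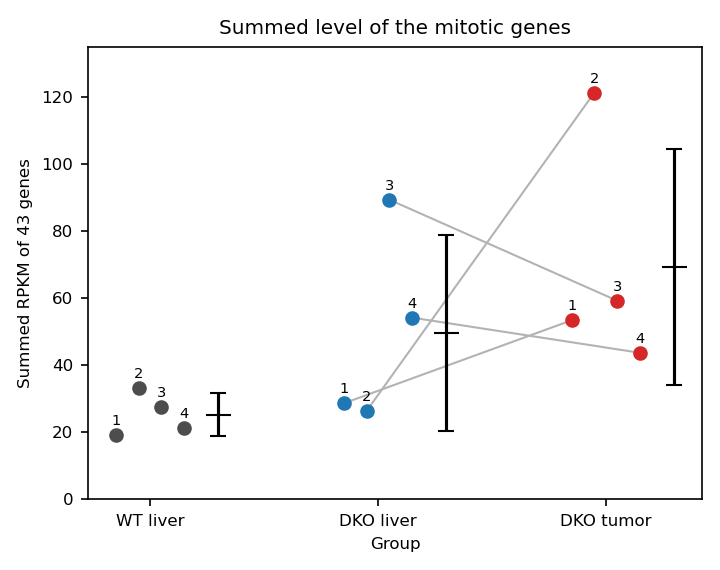
Summed RPKM of the 43 members, one point per library labelled with its replicate number, with group mean and SD (n = 4) as black bars and gray lines joining liver and tumor of the same animal. The WT livers run from 19.0 to 33.2, the DKO livers from 26.3 to 89.4 and the DKO tumors from 43.7 to 121, and the lines rise in animals 1 and 2 and descend in animals 3 and 4.

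In tumors 1 to 4 the sum was 53.4, 121, 59.2 and 43.7 RPKM, each above every WT liver. Tumor 2 was the highest of all 12 libraries for 33 of 43 members and the highest tumor for 41, and tumor 4 was the lowest tumor for 32. DKO liver 3 was the highest library for 8 members and the highest DKO liver for 38. Tumors 1 to 4 lay above every WT liver for 38, 42, 39 and 30 members, against 10.5%, 19.0%, 30.9% and 26.0% of all symbols. In both DKO groups most members were thus highest in the same library. The order of group means was tumor, DKO liver, WT liver for 39 of the 43. With median-of-ratios scaling the sums were 20.3, 33.0, 26.3 and 22.2 in WT livers, 26.2, 26.4, 69.2 and 58.9 in DKO livers, and 70.0, 129, 52.7 and 40.6 in tumors. On that scale DKO livers 3 and 4 lay above tumors 3 and 4.

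DKO tumors were compared with DKO livers to ask how tumor differs from the surrounding organ of the same genotype. The log2 difference was above 0 for 39 of 43 members, against 32.9% of all symbols, with a median of 0.24 against -0.09 over all genes tested. Without DKO tumor 2 the median was 0.10, with 32 members above 0 and 11 below, and without DKO liver 2 it was 0.12, with 35 and 8. Without DKO liver 3 it was 0.37, with 41 and 2, and without DKO liver 1 it was 0.14, with 38 and 5. This comparison and the other 2 share libraries. The median ratio of group means was 1.45, from 0.410 for Cks2 to 2.38 for Sgol1. Groups did not overlap for 2 members, Sgol1 higher in tumor (1.99% of all symbols) and Cks2 lower (3.15%). By limma 0 of 35 members passed, against 0.00881% of genes tested (1 gene). Unadjusted p was under 0.05 for 2 of the 35 members, Cks2 and Hmmr, and for 1822 of the 11351 genes, and voom on recovered reads called 0 members. With the animal as a block 0 members passed, against 0.625% of genes tested. Without DKO liver 3 and DKO tumor 2, a setting chosen after seeing the data, 8 members did not overlap, 7 of them higher in tumor, against 5.73% of all symbols.

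Sgol1, on mm9 chromosome 17 from 53815384 to 53828636, was at 0.107, 0.134, 0.144 and 0.151 RPKM in WT livers, 0.106, 0.214, 0.348 and 0.324 in DKO livers, and 0.349, 1.25, 0.360 and 0.399 in tumors. Reads numbered 12 to 37 in tumors and 3 to 10 in DKO livers, and tumor 1 lay above DKO liver 3 by less than the level that 1 read gives. Sgol1 was below the filter and was not tested. Hmmr, on chromosome 11 from 40515257 to 40546923, was at 0.281, 0.113, 0.529 and 0.702 RPKM in DKO livers and 0.745, 1.67, 0.634 and 0.716 in tumors. DKO liver 4 lay within the tumor range (log2 difference 0.45, limma adjusted p = 0.235). Sgol1 and Hmmr were chosen for description after their values were seen.

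Tumor and liver of the same animal gave different pictures in different animals. In animal 1 tumor was above liver for 39 of 43 members, against 22.0% of genes tested, with a median ratio of 2.15 from 0.253 for Cks2 to 8.59 for Plk1. In animal 2 it was above for 42 members, against 44.8%, with a median ratio of 4.98 from 0.614 for Cks2 to 14.8 for Hmmr. In animal 3 it was above for 3 members, against 28.5%, with a median ratio of 0.635 from 0.192 for Mybl2 to 1.94 for Cenpf.

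In animal 4 the tumor was above for 12 members, against 68.6% of genes tested, with a median ratio of 0.798 from 0.343 for Kif23 to 2.26 for Cdca8. The 2 animals whose tumor was lower were those whose liver was high, and the sums gave ratios of 1.87, 4.62, 0.663 and 0.806. With median-of-ratios scaling tumor was above liver for 41, 42, 8 and 8 members, with median ratios of 3.07, 5.25, 0.731 and 0.682, and the direction in each animal was the same. Only Hmmr and Sgol1 were higher in tumor in all 4 animals, against 7.9% of genes tested, and Cks2 was lower in all 4. Hmmr in animal 4 was at 0.716 RPKM in tumor and 0.702 in liver, and with median-of-ratios scaling that ratio turned to 0.872. With that scaling Kif2c and Sgol1 were the members higher in tumor in all 4 animals, against 17.5% of genes tested, and Cks2 was still lower in all 4 (15.1%). Without scaling another 10 members were higher in 3 animals, 28 in 2, and Cdc20 and Kif23 in 1.

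**Figure D4:**
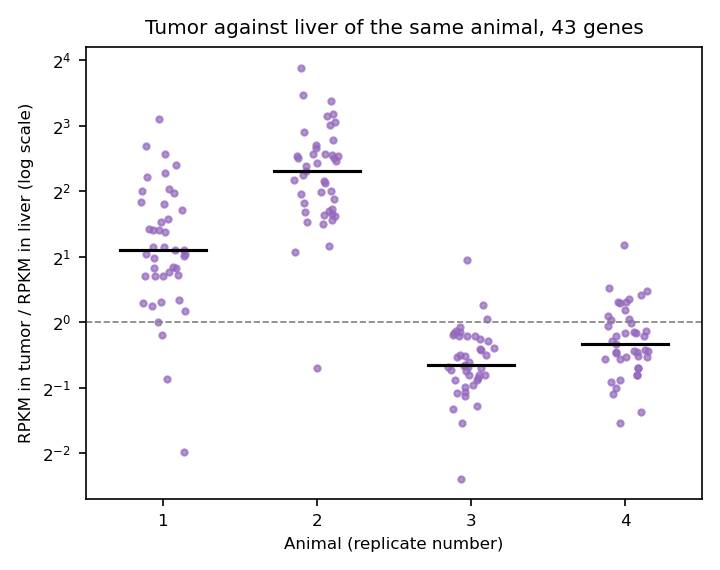
Ratio of tumor to liver RPKM of the same animal on a log axis, one point per member (43) in each animal, with the median as a black bar and a dashed line at equal levels. The medians of animals 1 and 2, 2.15 and 4.98, lie above the line and those of animals 3 and 4, 0.635 and 0.798, below it.

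The wider pathway was read from lists of other genes. Of 69 other mitotic genes 66 were found and 43 tested. Between tumor and WT liver 1 of the 43 tested passed, Incenp, beside 1.9% of all genes tested. A log2 difference above 0 was found for 56 of 66 (median 0.27), beside 41.8% of all symbols. Groups did not overlap for 16, all higher in tumor, beside the 4.02% of all symbols given above. Between DKO liver and WT liver 0 passed, as for all 11351 genes, and 49 were above 0 (median 0.14), beside 51.6% of all symbols. In that comparison 4 did not overlap, all higher in DKO liver, beside 4.05% of all symbols. Between tumor and DKO liver 0 passed and 54 were above 0 (median 0.19), beside 32.9% of all symbols.

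The subunits of the anaphase-promoting complex, the ubiquitin ligase that CDC20 activates, are needed outside mitosis as well. Of 13 subunits, all tested, 0 passed between tumor and WT liver and 6 had a log2 difference above 0 (median -0.02), beside 41.8% of all symbols. Anapc5 was at 25.4 RPKM in WT livers, 28.8 in DKO livers and 26.6 in tumors, far above the members it works with. Of 10 MuvB and DREAM subunits 0 passed between tumor and WT liver and 4 were above 0 (median -0.03), beside 41.8% of all symbols. Tumors lay below all WT livers for 2 of the 10, beside 4.04% of all symbols, and above for 0. DKO livers lay below all WT livers for 2 of the 10 as well, beside 1.28%. Rbbp4 was at 35.1, 32.7 and 35.4 RPKM and E2f4 at 9.72, 11.9 and 9.61.

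Genes of S phase, the class E2F7 and E2F8 are best known to repress, numbered 27, of which 26 were found and tested. Between tumor and WT liver 0 passed and 24 had a log2 difference above 0 (median 0.43), beside 41.8% of all symbols. Groups did not overlap for 1 of the 26, higher in tumor, which is near the 4.02% of all symbols. Between DKO liver and WT liver 0 passed and 23 were above 0 (median 0.24), beside 51.6% of all symbols. Between tumor and DKO liver 0 passed and 22 were above 0 (median 0.25), beside 32.9%. In that last comparison 1 gene did not overlap, lower in tumor, beside 3.15% of all symbols. Rrm2, the ribonucleotide reductase subunit, was at 3.79 ± 1.5 RPKM in WT livers, 9.31 ± 7.60 in DKO livers and 15.5 ± 10.9 in tumors (n = 4 each; limma adjusted p = 0.139 for tumor and WT liver). The S phase sum was highest in the libraries that led the mitotic sum, at 229 RPKM in tumor 2 and 223 in DKO liver 3, against 69.2 to 149 in the rest of the DKO libraries.

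Markers of other cell types moved with some of these libraries. Neutrophil precursor markers (Mpo, Ela2, Camp, Ngp and Ltf, 5 of 5 found) summed to 0.373 to 1.28 RPKM in WT livers, 3.27 to 48.0 in DKO livers and 0.570 to 12.5 in tumors. The highest sum was that of DKO liver 3, followed by tumor 3 of the same animal. Lymphocyte markers (11 of 11) summed to 5.59 to 18.8, 9.60 to 26.1 and 3.53 to 16.7 RPKM, again highest in DKO liver 3. Mpo, Ela2 and Camp were at 0 in at least 1 WT liver and in none of the DKO libraries.

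Cholangiocyte markers (6 of 6) summed to 168 RPKM in DKO liver 3 and 119 in tumor 3, and to 18.8 to 46.2 in every other library. Macrophage markers (7 of 7) summed to 93.9 to 273 RPKM in WT livers, 184 to 507 in DKO livers and 36.9 to 230 in tumors, and stellate cell and fibroblast markers (7 of 7) to 17.7 to 54.5, 43.9 to 122 and 20.4 to 68.7. In DKO liver 3, where 43 of 43 members were above every WT liver, neutrophil precursor, lymphocyte, cholangiocyte, endothelial and stellate markers were all at their highest, and their part in the result was not tested. In tumor 2, which had the highest mitotic sum, neutrophil precursor markers were at 0.858 RPKM, lymphocyte markers at 5.11 and macrophage markers at 74.9, and their part in that sum was not tested. Red cell precursor markers (7 of 7) summed to 66.4 to 110 RPKM in WT livers, 73.4 to 133 in DKO livers and 59.1 to 209 in tumors, with tumor 4 the highest, and endothelial markers (6 of 6) to 15.9 to 52.2 over all libraries.

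The tag in the data names was followed within its classes. Against the 2 WT livers with tag L03, the 4 tumors lay above for 36 of 43 members, against 6.81% of all symbols. Against the 2 WT livers with tag L02, the 4 DKO livers lay above for 12 of 43, against 8.11% of all symbols. With the tag as a covariate 0 members passed between tumor and WT liver, and only 3 genes passed in the whole fit. Between tumor and DKO liver the tag effect in that fit rests on the WT livers alone. There the median log2 difference of the 35 tested members was 0.28, and 0 members passed, as did 0 of all genes tested.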

How the data were processed

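Per the labels' protocols, total RNA was isolated on RNeasy columns, polyadenylated RNA was purified and libraries were made with a SOLiD kit. The authors deposited RPKM per RefSeq transcript, with exon length and mm9 coordinates, 1 table of 21247 rows per library. Per the submitters' processing notes BWA and mm9 were used, and versions, counting rules and strand are not given in the sources used here. RPKM times exon length gave whole reads for at least 99.99% of values within 0.05 read, from which the depth of 7.98 to 15.96 M reads (M, mega) and the reads per gene were recovered. Intervals of counting error are not given, and 12 libraries limit the precision.

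For each of 19012 symbols (1520 with more than 1 row) the row with most exonic bases was used. The 11351 genes that reached 0.5 RPKM in 4 or more libraries were fitted on log2(RPKM + 1), with a mean per group over all 12 libraries, in limma 3.58.1 under R 4.3.3 (intensity trend, robust shrinkage, two-sided, Benjamini-Hochberg at 0.05). Python 3.11.15, numpy 2.4.6, pandas 2.3.3 and matplotlib 3.10.9 did the rest. The fit was run on simulated data with planted tumor shifts and independent noise. That simulation held no tag effect, no pairing by animal and no library that lifts many members, so it does not cover these limits. Members, gene lists and tests were chosen with earlier results of these data known. Values per library are given for members that passed, for the member with the highest mean level in each role and for named regulators of division. Of the 8 regulators named, Mki67 was not analysed and Mybl2 is given in reads. Cks2, Sgol1, Hmmr and Prc1 were added after the values were seen, Hmmr without its WT libraries and Prc1 by group mean and SD only.

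DKO tumors and DKO livers are paired by animal code. The correlation of their deviations from the group means over all genes tested was 0.117, 0.347, 0.368 and 0.0028 in animals 1 to 4. WT livers share only replicate numbers with the other groups. Alternatives covered the offset, the filter, scaling, the transcript, the tag, blocks, voom on recovered reads and leaving out libraries.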

Additional observations from a re-analysis of the deposited data

Results flagged for a closer look

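Within the 132 groups of 4 libraries formed by the 43 members and their summed level, 11 held a library whose gap to the nearest other value took up more of the group's range than Dixon's 95% critical value allows. Chance alone flags about 1 in 20 such groups, and members of 1 library are not independent. All 11 were high values. DKO tumor 2 gave 5 of them: Spc25 at 13.2 RPKM (next tumor 4.88), Cdc20 at 3.07 (next 1.41), Foxm1 at 1.93 (next 0.737), Hmmr at 1.67 (next 0.745) and Sgol1 at 1.25 (next 0.399). WT liver 2 gave 3, namely Nek2 at 2.41 RPKM (next WT liver 0.937), Ect2 at 1.37 (next 0.708) and Foxm1 at 0.572 (next 0.251). DKO liver 3 gave Cdca8 at 1.46 RPKM (next DKO liver 0.359) and Bub1b at 1.44 (next 0.529), and DKO liver 4 gave Cenpf at 0.165 (next 0.0629).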

How the results depend on the processing

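The number of members called between tumor and WT liver, 1 as reported, was 5 with median-of-ratios scaling, 4 with the 8 libraries of the comparison alone, 3 with quantile normalization or an offset of 0.1, and 0 with no filter, a filter at 1 RPKM, the tag as covariate, tumors and WT livers of the same tag, or DKO liver 3 and DKO tumor 2 left out (chosen after seeing the data). Over all genes tested, 216 were called as reported, and 598, 303, 491 and 238 with median-of-ratios scaling, the 8 libraries alone, quantile normalization and the offset of 0.1. In the settings with 0 members, all-gene calls were 1 with no filter, 3 with the tag as covariate and 25 with the same tag. They were 66 without DKO liver 3 and DKO tumor 2, and 209 with the filter at 1 RPKM. The number of members ran from 0 to 5 when 1 library was left out, with 5 without DKO liver 3 and 2 without DKO tumor 3. With the replicate number as a block, which for WT livers is only a number, it was 5 of 128 genes called (Ccna2, Nek2, Plk1, Prc1 and Top2a) and Kif2c had limma adjusted p = 0.0867. Calls stayed at 0 in the other 2 comparisons under every alternative run, the block included. Non-overlapping members between tumor and WT liver, 27 as reported, were 14 of the 21 left by the filter at 1 RPKM and 27 to 36 when 1 library was left out. Between DKO liver and WT liver, 9 as reported, they were 2 with that filter, 1 with quantile normalization, and 9 to 15 when 1 library was left out. Between tumor and DKO liver, 2 as reported, they were 1 with that filter or with median-of-ratios scaling, 8 with DKO liver 3 and DKO tumor 2 left out, and 2 to 8 when 1 library was left out (8 without DKO liver 3, 4 without DKO liver 4). The median log2 difference of tumor and WT liver, 0.64, was 1.31 with the offset of 0.1 and 1.5 with voom, and that of DKO liver and WT liver, 0.37, was 0.87 and 1.02. Median-of-ratios scaling moved the median of all genes between tumor and DKO liver from -0.09 to 0.02. No result listed changed direction. Low read numbers limit most members in WT liver.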
